A study of Homo sapiens with 6 samples.

Results

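The genes described here encode the proteins of the cytosolic ribosome. They were chosen by name: a probe set belonged to the group if its only annotated gene symbol began with RPL or RPS and a digit, or was RPLP0, RPLP1, RPLP2 or RPSA. Kinases of the RPS6K family, RPS4Y genes, antisense transcripts and pseudogenes were left out. The rule used no measured value and gave 121 of the 54613 probe sets that are not controls, standing for 60 of 19775 genes. Of these genes, 39 encode proteins of the large subunit and 21 proteins of the small subunit. A further 65 probe sets name a ribosomal protein gene together with another gene and were not members, so that 15 genes, RPL4, RPL5, RPL10, RPS2 and RPS20 among them, are represented only there. RPLP0, RPSA and RPS27A were in neither set, so the ribosome is not fully covered.

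The RNA came from RL, an established human cell line of B lymphoid origin with the t(14;18) translocation typical of follicular lymphoma. One group was grown as MALC, multicellular aggregates of lymphoma cells, and collected after 10 days; the other was grown in suspension and collected while growing exponentially. All cells were untreated, and each group had 3 samples, numbered 1 to 3, each on its own Affymetrix U133 Plus array. The comparison asks how expression in aggregates differs from expression in suspension, and since both forms come from 1 cell line, it cannot speak for other lymphoma cells.

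A ribosome is built from ribosomal RNA and a large number of ribosomal proteins, most of them present in a single copy, so their genes are expressed at high and similar levels in growing cells. Their mRNAs usually begin with a terminal oligopyrimidine tract, called TOP, a C followed by an unbroken run of C and T at the very start, through which growth signals passing the kinase mTORC1 set how well the mRNA is translated. A few ribosomal proteins have paralogs, often marked by an L at the end of the symbol, that can take their place in the ribosome or act outside it.

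The starts of 8 genes on which the results turn are shown because they place genes with and without the tract side by side and include 3 paralogs described later. Each line holds the 10 bases before the RefSeq start of transcription and the 20 bases from the start on, read 5′ to 3′ on the gene's strand (GRCh38.p14), and capitals mark the C at the start with the pyrimidines that follow it without a break. RPL36 (chr19:5690285-5690314, plus strand), RPL31 (chr2:101002279-101002308, plus), RPL18 (chr19:48619159-48619188, minus), RPL22 (chr1:6199576-6199605, minus), RPL22L1 (chr3:170870176-170870205, minus), RPS27 (chr1:153990752-153990781, plus), RPS27L (chr15:63157458-63157487, minus) and RPL7L1 (chr6:42879606-42879635, plus) read:
RPL36: cggcgccagcCCTTCCgccacggccgtctc
RPL31: ccttcgcgctCTTCCTTTCCaacttggacg
RPL18: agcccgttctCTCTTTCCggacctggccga
RPL22: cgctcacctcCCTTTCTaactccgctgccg
RPL22L1: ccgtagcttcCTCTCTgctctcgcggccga
RPS27: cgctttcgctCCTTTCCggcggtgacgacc
RPS27L: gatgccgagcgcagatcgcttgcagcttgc
RPL7L1: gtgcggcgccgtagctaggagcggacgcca
RPS27L and RPL7L1 have no tract at the annotated start, whereas RPL22 and its paralog RPL22L1 both have one.

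RefSeq promoter windows were at hand for 52 of the 60 genes, with 60 starts in all. A C at the start with at least 4 pyrimidines after it was found for 35 of the 52 genes (67.3%), against 5.14% of the 27305 genes of the promoter table. The letters TTCCGG, on either strand of the 300 bases from 250 before the start to 50 after it, were found in 56.7% of the ribosomal protein starts and 17.2% of all starts. AAGATGG was found in 10% and 5.84%, and TATAAA in 8.33% and 11.5%. The TTCCGG letters can overlap the tract, as in RPL18 and RPS27 above, where the run ends inside them. These are matches of letters and were not tested as sites.

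Ribosomal protein probe sets lay at the top of the signal scale. Of the 100 brightest probe sets of the arrays, 38 were members and 25 more named a ribosomal protein gene beside another gene. RPL41, which encodes the smallest protein of the ribosome, gave the highest signal of each of the 6 arrays: 36953, 36880 and 37301 in MALC samples 1, 2 and 3 and 35987, 36208 and 36528 in suspension samples 1, 2 and 3. A mean signal of 15000, a limit set after the values were seen, separated 67 bright member probe sets, the dimmest of them at 16387, from the rest, the brightest of which was at 10640. Whether signals this high still follow the amount of RNA in proportion was not tested. A rank on this scale describes probe sets and not the relative amounts of their mRNAs.

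The remaining facts of the arrays are brief. Signals are linear intensities, with a 95th percentile over all probe sets of 2339 to 2399 for MALC and 2476 to 2488 for suspension. Within a group, arrays correlated between 0.9908 and 0.9983 across probe sets, and samples 2 and 3 were the closest, at 0.9976 in MALC and 0.9983 in suspension. No label states that the samples were separate cultures, so each p-value reflects the spread among these samples alone, and that spread may be technical. Of 7 B cell markers 6 had a probe set of their own, all passed the filter on dim signals, with a summed signal between 42138 and 45264 in MALC and between 41395 and 44312 in suspension. The summed signals of T cell, myeloid, endothelial and epithelial markers were between 208 and 309 in every array. Those of 4 fibroblast markers were higher in suspension, at 494 to 921, than in MALC, at 427 to 464, mainly through COL1A2 in suspension samples 2 and 3 (346.6 and 126.9, against 46.0 to 54.2 in the other arrays) and COL3A1 in suspension sample 2 (173.8). None of the markers tested was called, and their part in the results was not tested.

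In MALC, 23 of the 59 ribosomal protein genes tested were higher and 3 were lower, while 33 did not pass the test (limma, adjusted p under 0.05). Over all 13765 genes tested, 19.0% were higher and 23.7% were lower. The 23 genes that rose include RPL36, RPL31, RPL18, RPL12 and RPL11 of the large subunit and RPS25, RPS29 and RPS3 of the small subunit, and those that fell were RPL7L1, RPL22L1 and RPLP2. The changes were small: the median over the 59 genes was 0.07 on the log2 scale, a 1.05-fold difference, and single genes lay between -0.44 and 0.31. The median over all genes tested was -0.06. A value above 0 was found for 52 of the 59 genes, and 43 had all 3 MALC samples above all 3 suspension samples, which 23.1% of all genes had. For 4 genes, RPL7L1, RPL22L1, RPLP2 and RPL6, all MALC samples lay below all suspension samples, against 33.8% of all genes. Every fold here is on the scale of log2(signal + 16). In RNA from whole cultures, fewer cells that express a gene and less RNA per cell cannot be told apart.

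The number of genes that rose, 39.0% of those tested, rested on several arrays. It was 8 without MALC sample 2 (13.6%, and 13.6% of all genes in the same fit), 10 without MALC sample 3 (16.9% and 14.1%), 13 without suspension sample 2 (22% and 15.4%) and 12 without suspension sample 3 (20.3% and 15.2%). With samples 2 and 3 of each group averaged and counted as 1, it was 1 (1.69%, against 8.94% of all genes), and with no intensity trend in the spread model it was 5 (8.47% against 19.0%). The larger share of rises among these genes than among all genes was thus absent without MALC sample 2 and reversed in the last 2 settings. The share that fell was below that of all genes in each of these fits.

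**Figure D1:**
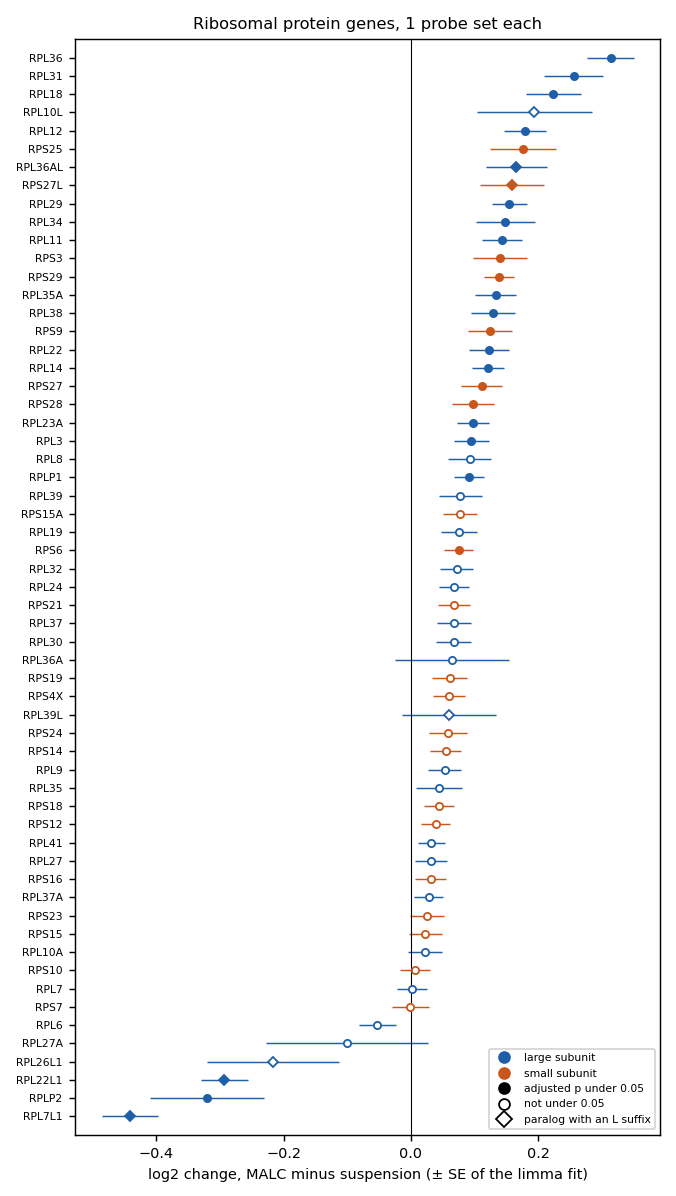
Log2 change, MALC minus suspension, of the 59 ribosomal protein genes tested, 1 probe set each; bars are ± SE of the limma fit, colour gives the subunit, filled symbols have an adjusted p under 0.05 and diamonds are paralogs with an L suffix. Most genes lie between 0 and 0.2, RPL36 is highest at 0.31, and RPL7L1 and RPL22L1, both paralogs, are at -0.44 and -0.29.

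Signals of the bright genes separated the arrays by group. Over the 49 genes represented by a bright probe set, the median signal was 26568, 26742 and 26654 in MALC samples 1, 2 and 3 and 25146, 25070 and 25159 in suspension samples 1, 2 and 3. All MALC samples were above all suspension samples, by a small margin. Of these 49 genes, 21 rose and none passed the test in the other direction, and the 28 others did not pass. The 121 member probe sets held 5.63%, 5.82% and 5.83% of the summed signal of all probe sets in MALC and 5.33%, 5.42% and 5.43% in suspension. In both groups sample 1 stood apart: it was the lowest of its group for 42 of the 59 genes in MALC and for 41 in suspension. Bright probe sets of other genes are given for comparison: among the 155 bright probe sets that name no ribosomal protein gene, 26 were higher (16.8%) and 49 lower (31.6%), with a median of -0.02.

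Among the 38 large subunit genes tested, 15 rose (39.5%, against 19.0% of all genes) and 3 fell (7.89%, against 23.7%), with a median of 0.07. RPL36, a protein of the large subunit, had signals of 17800, 18851 and 18996 in MALC and 14674, 15103 and 14979 in suspension. The groups did not overlap and the lowest MALC sample was well above the highest suspension sample. The difference was 1.24-fold (log2 0.31, SE 0.036, adjusted p = 0.000717), and it passed the test in every alternative in which RPL36 could be tested.

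RPL31, which lies near the exit of the peptide tunnel, gave 20150, 22028 and 22500 in MALC and 17540, 18216 and 18356 in suspension. Sample 1 was the lowest in both groups, and even so the groups stayed apart. The difference was 1.19-fold (log2 0.26, adjusted p = 0.00387). RPL18 gave 18205, 19554 and 19113 in MALC and 15491, 16715 and 16505 in suspension, again with sample 1 lowest in both groups and no overlap. It was 1.17-fold higher in MALC (log2 0.22, adjusted p = 0.00496), but the mean of its probe sets, in place of the brightest one, gave 0.08 with an adjusted p of 0.263.

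RPL12, part of the base from which the flexible stalk of the large subunit extends, was nearly constant in MALC, at 25397, 25430 and 25475, and was 23445, 22067 and 21932 in suspension. Here sample 1 was the highest of the suspension group, unlike in most member genes. The change was 1.13-fold (log2 0.18, adjusted p = 0.0041), and the second bright probe set of RPL12 gave 0.16. RPL29, a small basic protein also known to bind heparin, was at 24686 ± 563 in MALC and 22172 ± 63.1 in suspension (SD, n = 3), without overlap (log2 0.15, adjusted p = 0.00388).

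RPL31, RPL18, RPL12, RPL29 and RPL11 kept their calls when any single array was left out and lost them when samples 2 and 3 were averaged, with adjusted p-values of 0.0573, 0.0618, 0.0795, 0.0864 and 0.117.

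RPL11 binds 5S ribosomal RNA together with RPL5 and, when not in a ribosome, the p53 regulator MDM2. Its signals were 21643, 22795 and 22628 in MALC and 20010, 20399 and 20302 in suspension, so that the groups did not overlap. The change was 1.1-fold (log2 0.14, adjusted p = 0.00825). The call of RPL11 was also lost with no intensity trend in the spread model (0.0659). RPL5 had no probe set of its own. Smaller rises were seen in RPL38, known for its part in the translation of homeobox mRNAs, at 17910 ± 505 against 16382 ± 307 (SD, n = 3; log2 0.13, adjusted p = 0.0198), and in RPL3, which reaches the peptidyl transferase centre, at 26594 ± 264 against 24910 ± 523 (SD, n = 3; log2 0.09, adjusted p = 0.0261). Neither pair of groups overlapped. Dim probe sets of RPL38 (202028_s_at and 221943_x_at) gave log2 changes of 0.01 and 0.02 with overlapping groups. With probe sets averaged within the gene, the adjusted p of RPL38 was 0.641. Without MALC sample 2, MALC sample 3 or suspension sample 3 the adjusted p was 0.0862, 0.0744 and 0.0686 for RPL38 and 0.0703, 0.0903 and 0.0994 for RPL3, and without suspension sample 2 it was 0.082 for RPL3.

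RPL34, RPL35A, RPL14 and RPL23A also rose, and none of them had overlapping groups. RPL34 gave 22311, 24927 and 23855 in MALC and 20648, 21440 and 22030 in suspension (log2 0.15, adjusted p = 0.0351). RPL14 gave 26424, 27244 and 26654 in MALC and 24483, 24628 and 24736 in suspension (log2 0.12, adjusted p = 0.00723), and its other bright probe set rose by 0.23. A dim probe set of RPL14 (219138_at) gave 0.01, and with probe sets averaged the adjusted p of RPL14 was 0.111. RPL35A, known as a Diamond-Blackfan anaemia gene, and RPL23A, which forms part of the docking site at the peptide exit, had log2 changes of 0.13 (adjusted p = 0.013) and 0.10 (adjusted p = 0.0173). Of the other probe sets of RPL35A none passed the test, and its dim probe set 238026_at had a log2 change of -0.08 (adjusted p = 0.432). Without MALC sample 2 the adjusted p was 0.126 for RPL34, 0.0631 for RPL35A and 0.0615 for RPL23A. Without MALC sample 3 it was 0.0986 for RPL34 and 0.0702 for RPL23A, without suspension sample 1 it was 0.0923 for RPL34, without suspension sample 2 it was 0.0822 for RPL34 and 0.0725 for RPL23A, and without suspension sample 3 it was 0.0525 for RPL23A.

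Of the acidic proteins P1 and P2, which form the stalk that recruits translation factors, RPLP1 and RPLP2 were members. RPLP1 gave 26712, 26818 and 26690 in MALC and 25193, 24960 and 25159 in suspension. The 2 ranges were narrow and did not overlap (log2 0.09, adjusted p = 0.0172), but the call was lost without MALC sample 2 (0.0737), MALC sample 3 (0.0557), suspension sample 2 (0.0695) or suspension sample 3 (0.0569). With probe sets averaged within the gene, the adjusted p of RPLP1 was 0.687. RPLP2 was called lower from a dim probe set with 74.4, 90.1 and 90.4 in MALC and 100.1, 121 and 108.8 in suspension. The groups did not overlap, and which part of the transcript this dim probe set detects was not analysed here. The log2 change was -0.32 (adjusted p = 0.0231), with adjusted p-values of 0.0726 without suspension sample 2 and 0.0598 without suspension sample 3.

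Several large subunit genes at the very top of the scale did not pass the test. RPL41, whose signals are given above, had a log2 change of 0.03 (adjusted p = 0.255) although every MALC sample was above every suspension sample. RPL37A, a zinc-binding protein, had a log2 change of 0.03 (adjusted p = 0.347), with 34466, 34844 and 34316 in MALC and 33475, 34178 and 34015 in suspension. RPL7 gave a log2 change of 0.00 (adjusted p = 0.961), with 28828, 29269 and 29036 in MALC and 28650, 29245 and 29142 in suspension, so that the groups overlapped. RPL6 was the only bright gene with all MALC samples below all suspension samples (log2 -0.05, adjusted p = 0.175).

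Among the 21 small subunit genes, 8 rose (38.1%, against 19.0% of all genes) and 13 did not pass the test, with a median of 0.06. RPS29, a small zinc-binding protein, had the lowest adjusted p of them, with 26742, 26774 and 26727 in MALC and 24437, 24285 and 24221 in suspension. Each group spanned a very small range and the groups were far apart relative to it. The change was 1.1-fold (log2 0.14, SE 0.024, adjusted p = 0.00307). The call was lost with no intensity trend in the spread model (0.0619) and with samples 2 and 3 averaged (0.0792). RPS29 was not among the genes chosen by the rule for named genes and was picked after its values were seen.

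RPS25, which is known to be needed for several kinds of internal initiation, had the highest log2 change of the small subunit. Its signals were 24504, 26471 and 24600 in MALC and 20762, 22768 and 23402 in suspension. The groups did not overlap, but the spread inside each was wide. The change was 1.13-fold (log2 0.18, SE 0.052, adjusted p = 0.0288), and the call was lost without MALC sample 2 (0.108), MALC sample 3 (0.0567), suspension sample 1 (0.0538) or suspension sample 2 (0.0536).

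RPS3, which lines the mRNA entry channel, gave 24584, 26258 and 25579 in MALC and 21875, 23825 and 23714 in suspension (log2 0.14, adjusted p = 0.0326). RPS6, the substrate of the S6 kinases, gave 31167, 31692 and 31336 in MALC and 29700, 29752 and 29965 in suspension (log2 0.08, adjusted p = 0.0305). In neither gene did the groups overlap. Without MALC sample 2, MALC sample 3 or suspension sample 3 the adjusted p was 0.123, 0.0911 and 0.0512 for RPS3 and 0.122, 0.0821 and 0.0767 for RPS6. It was 0.0594 for RPS3 without suspension sample 1 and 0.0952 for RPS6 without suspension sample 2.

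RPS9, which helps to read the codon accurately, gave 17162, 17327 and 16788 in MALC and 15202, 16048 and 15794 in suspension (log2 0.12, adjusted p = 0.0218). RPS28, which lies near the mRNA exit, gave 28566, 30372 and 30087 in MALC and 26968, 28058 and 28171 in suspension (log2 0.10, adjusted p = 0.0482). The groups did not overlap in either gene. RPS9 lost its call without MALC sample 2 (0.0918) or suspension sample 3 (0.0595). RPS28 lost it without any single array other than MALC sample 1, with adjusted p-values of 0.169 and 0.141 for MALC samples 2 and 3 and 0.108, 0.0874 and 0.0794 for suspension samples 1, 2 and 3.

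RPS19, mutated in Diamond-Blackfan anaemia, and RPS14, lost in the 5q deletion of myelodysplastic syndrome, did not pass the test. RPS19 gave 29600, 30970 and 30754 in MALC and 29452, 28746 and 29356 in suspension (log2 0.06, adjusted p = 0.114; 0.0319 without MALC sample 1). RPS14 gave 27706, 28200 and 28264 in MALC and 26790, 27330 and 26924 in suspension (log2 0.05, adjusted p = 0.109). In both genes the lowest MALC sample was just above the highest suspension sample. RPS15A, a further protein of the small subunit, was on the threshold (log2 0.08, adjusted p = 0.05), and passed it in the blocked fit by sample number (0.0425) and when MALC sample 1 was left out (0.023). RPS7 and RPS10 had log2 changes of 0.00 and 0.01 with overlapping groups.

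**Figure D2:**
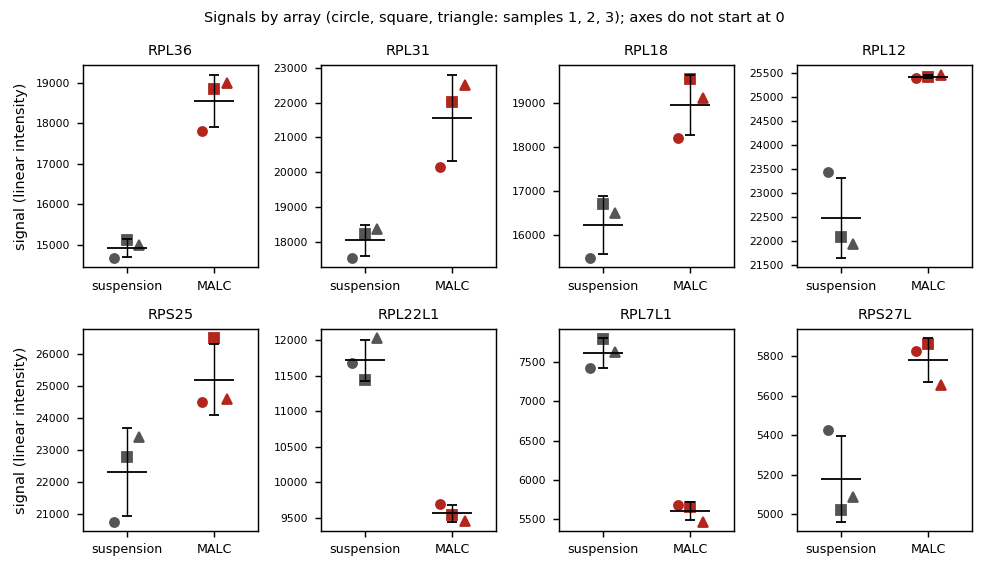
Linear signals of 8 ribosomal protein genes in each of the 6 arrays; circles, squares and triangles are samples 1, 2 and 3, the horizontal line is the group mean and the bar ± SD (n = 3), and the axes do not start at 0. In RPL36, RPL31, RPL18, RPL12, RPS25 and RPS27L all MALC samples lie above all suspension samples, and in RPL22L1 and RPL7L1 all lie below.

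The paralogs with an L suffix did not move as one group. Of the 7 tested, RPL36AL and RPS27L rose, RPL7L1 and RPL22L1 fell, and RPL10L, RPL26L1 and RPL39L did not pass the test. That is 28.6% in each direction, not far from the 19.0% higher and 23.7% lower among all genes tested. RPL3L, known from striated muscle, was below the filter, with signals of 41.6 to 52.9. Over the 52 tested genes without an L suffix, 21 rose (40.4%) and 1, RPLP2, fell (1.92%).

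RPL7L1, a paralog of RPL7, showed the largest change of the 59 genes. Its signals were 5685, 5658 and 5469 in MALC and 7421, 7789 and 7633 in suspension. The highest MALC sample was far below the lowest suspension sample, and RPL7 itself overlapped between the groups. RPL7L1 was 1.36-fold lower in MALC (log2 -0.44, SE 0.044, adjusted p = 0.000436).

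RPL22L1 is a paralog of RPL22, and RPL22 is known to bind its RNA and restrain its expression. RPL22L1 gave 9687, 9534 and 9459 in MALC and 11684, 11447 and 12027 in suspension. It was 1.23-fold lower in MALC (log2 -0.29, SE 0.037, adjusted p = 0.000976), without overlap. RPL22, an RNA-binding protein of the large subunit, gave 21242, 21307 and 21638 in MALC and 20267, 19164 and 19556 in suspension, and so ran the other way (log2 0.12, adjusted p = 0.0169). Both falls, of RPL7L1 and RPL22L1, passed the test in every alternative in which they could be tested. The call of RPL22 was lost without MALC sample 2 (0.0596), MALC sample 3 (0.0641), suspension sample 2 (0.0705) or suspension sample 3 (0.0603). RPL22 and RPL22L1, whose annotated starts above both carry a tract, were thus called in opposite directions.

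RPS27L, a paralog of RPS27 known as a p53 target, gave 5823, 5860 and 5654 in MALC and 5427, 5022 and 5088 in suspension (log2 0.16, adjusted p = 0.0369). RPS27, a zinc-finger protein of the small subunit, gave 29268, 30028 and 30303 in MALC and 26572, 27974 and 28455 in suspension (log2 0.11, adjusted p = 0.0291). Neither gene's groups overlapped. Both calls were lost without MALC sample 2 (0.131 and 0.0984), MALC sample 3 (0.0685 and 0.0975) or suspension sample 2 (0.135 and 0.0616), and that of RPS27L also without suspension sample 3 (0.123). The call of RPS27L also rests on 1 of its probe sets, as described below.

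RPL36AL, an expressed copy of RPL36A, gave 9047, 9842 and 9837 in MALC and 8752, 8377 and 8468 in suspension (log2 0.17, adjusted p = 0.0266). It lost its call without MALC sample 2 (0.11), MALC sample 3 (0.0925), suspension sample 2 (0.0931) or suspension sample 3 (0.0852). RPL36A itself was represented by a dim probe set of 72.0 to 88.2 in MALC and 65.3 to 79.6 in suspension, with a log2 change of 0.06 (adjusted p = 0.583). The remaining paralogs are RPL26L1 (2295 ± 146 and 2682 ± 376; log2 -0.22, adjusted p = 0.13), RPL39L (2034 ± 151 and 1948 ± 69.7; log2 0.06, adjusted p = 0.536) and RPL10L, an autosomal copy of RPL10 known from testis (165 ± 7.95 and 143 ± 18.5; log2 0.19, adjusted p = 0.12), each given as mean ± SD in MALC and suspension (n = 3). The groups overlapped in all 3 genes. With the sample number as a block the adjusted p of RPL26L1 was 0.0329, and without suspension sample 2 that of RPL10L was 0.0274. RPL39, the parent of RPL39L, did not pass either (log2 0.08, adjusted p = 0.104).

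Taken probe set by probe set, in a fit over all 32768 probe sets that passed the filter, 43 of 115 tested member probe sets were higher in MALC and 11 lower. Over all probe sets 21.2% were higher and 20.4% lower. The split differed with brightness. Of the 67 bright probe sets 33 rose (49.3%) and none passed the test in the other direction. Of 13 with a mean signal between 1000 and 15000, 6 rose (46.2%) and 2 fell (15.4%). Of 35 below 1000, 4 rose (11.4%) and 9 fell (25.7%), the share of falls being near the 20.4% of all probe sets. Shares of all probe sets in the 2 lower ranges were not worked out. The groups were fully apart for 66 of the 115 probe sets with MALC above (25.9% of all probe sets) and for 14 with MALC below (30.3% of all probe sets). For the 14 genes with several bright probe sets, the log2 changes of 1 gene's probe sets lay at most 0.15 apart, from 0.004 in RPS4X to 0.148 in RPL10A, whose 2 probe sets gave 0.02 and 0.17. The number of probe sets that rose was 18 without MALC sample 2 (15.7%, and 15.1% of all probe sets in the same fit). It was 22 without MALC sample 3 (19.1% and 15.8%), 24 without suspension sample 2 (20.9% and 17.3%) and 27 without suspension sample 3 (23.5% and 17.1%). Without MALC sample 2 the share of rises was thus near that of all probe sets. The number that fell was 7 without suspension sample 2 (6.09% and 15.1%) or suspension sample 3 (6.09% and 14.9%).

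**Figure D3:**
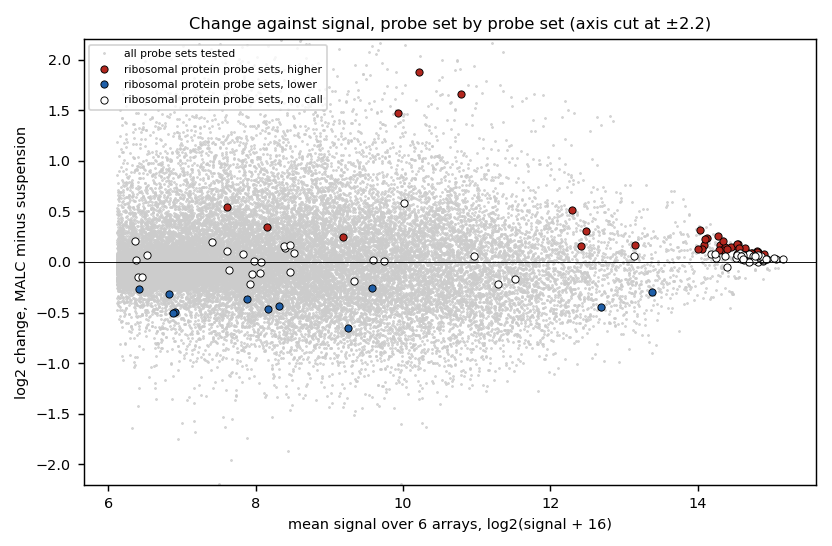
Log2 change, MALC minus suspension, against the mean signal over the 6 arrays, log2(signal + 16); grey points are all probe sets tested and circles the 115 ribosomal protein probe sets tested, red where higher, blue where lower and white where the test was not passed, and the vertical axis ends at 2.2 in both directions. The 67 bright probe sets form a dense cluster at the right between -0.05 and 0.31, while the dimmer ones spread from -0.65 to 1.88.

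Dimmer probe sets of a gene often disagreed with its bright one. Among 33 genes with more than 1 tested probe set, 7 (RPL31, RPL37, RPL37A, RPL7, RPS15A, RPS16 and RPS27L) had probe sets more than 0.5 apart on the log2 scale, and 3 (RPS15A, RPS27L and RPS28) had probe sets that passed the test in opposite directions. In RPL37, a zinc-binding protein of the large subunit, the bright probe set gave 25497, 25997 and 25755 in MALC and 24114, 24964 and 24667 in suspension, a log2 change of 0.07 that did not pass the test (adjusted p = 0.064). A second probe set of RPL37 (224763_at) gave 1483, 2007 and 2072 in MALC and 386, 525.2 and 565.1 in suspension, a 3.69-fold rise (log2 1.88, SE 0.173, adjusted p = 0.000347). Another probe set of RPL37 (224767_at) gave 1919, 3020 and 3115 in MALC and 719, 861.2 and 892.7 in suspension, a 3.15-fold rise (log2 1.66, adjusted p = 0.000655). These were the largest changes of the 115 probe sets, and neither probe set's groups overlapped.

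RPL31 had a similar second probe set (200962_at), with 774.5, 1780 and 1679 in MALC and 250.4, 644.4 and 630.1 in suspension. Sample 1 was well below samples 2 and 3 in both groups, and the groups did not overlap. The change was 2.77-fold (log2 1.47, SE 0.422, adjusted p = 0.0262), against 0.26 for the bright probe set and 0.24 for the remaining one. RPL22 likewise had a probe set of middle brightness (221726_at) at 5093, 6285 and 6279 in MALC and 3796, 4308 and 4226 in suspension (log2 0.51, adjusted p = 0.00414), next to bright probe sets at 0.08 to 0.12. A dim probe set of RPS29 (238824_at) rose by 0.54, at 218.4, 206.4 and 222.1 against 161.5, 141.6 and 128.3, while the bright one gave 0.14.

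In other genes the dim probe set fell. A probe set of RPL37A (213459_at) gave 513.7, 438.6 and 419.5 in MALC and 639.5, 808.5 and 734.7 in suspension, 1.57-fold lower in MALC (log2 -0.65, adjusted p = 0.00337). For RPS27L the probe set 238935_at gave 93.3, 77.9 and 73.5 in MALC and 112, 121.4 and 131.9 in suspension (log2 -0.50, adjusted p = 0.00438), opposite to the brighter one. The groups were apart in both. Falls with no overlap were also found for dim probe sets of RPL7 (log2 -0.49), RPS15A (-0.46), RPS16 (-0.44) and RPS28 (-0.36 and -0.26), while the bright probe sets gave 0.00 and 0.04 for RPL7, 0.08 for RPS15A, 0.03 to 0.07 for RPS16 and 0.10 for RPS28. With probe sets averaged within a gene, RPS27L was at -0.08 (adjusted p = 0.313) and RPS28 at -0.17 (adjusted p = 0.0697). What parts of the transcripts these probe sets detect was not analysed here.

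**Figure D4:**
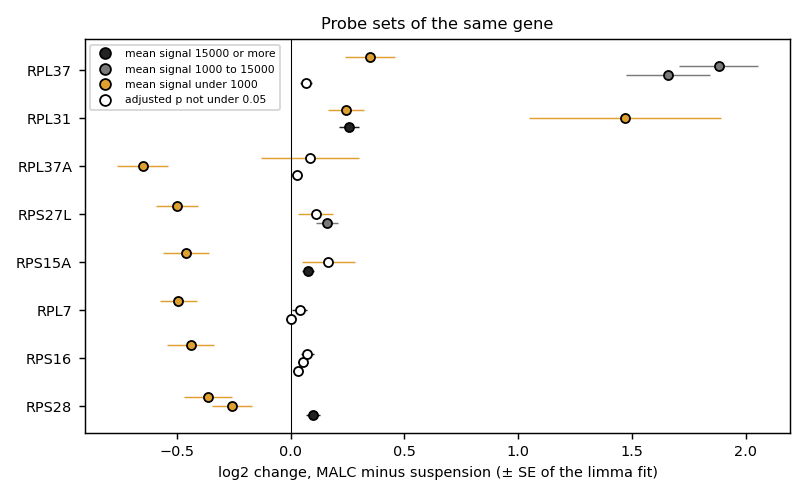
Log2 change, MALC minus suspension, of every tested probe set of 8 ribosomal protein genes, with ± SE of the limma fit over all probe sets; black, grey and orange mark mean signals of 15000 or more, 1000 to 15000 and under 1000, and white has an adjusted p not under 0.05. Probe sets of RPL37 and RPL31 reach 1.88 and 1.47, the lowest dim ones of RPL37A, RPS27L, RPS15A, RPL7, RPS16 and RPS28 lie between -0.65 and -0.36, and bright ones between 0.00 and 0.26.

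The genes were also set out by the tract at their start. Of 35 tested genes with the C and at least 4 pyrimidines, 17 rose and 2 fell, with a median of 0.08 and a range from -0.32 to 0.31. Of 17 tested genes without it, 5 rose and 1 fell, with a median of 0.06 and a range from -0.44 to 0.19. Over all genes tested 19.0% rose and 23.7% fell. The difference between the sets with and without the tract was not tested.

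Other mRNAs known to carry a TOP tract, a list of 17 genes of which 13 could be tested, had 6 members that rose and none that passed the test in the other direction, with a median of 0.06; of all genes tested 19.0% rose. The 6 were EIF3H (1.31-fold, log2 0.39), EIF3E (1.28-fold, log2 0.36) and EIF3F (1.23-fold, log2 0.29), subunits of initiation factor 3, EIF4B and EEF1D, factors of initiation and elongation, and the histone chaperone NAP1L1. The elongation factors EEF1A1 and EEF2 had log2 changes of 0.05 (adjusted p = 0.119) and 0.03 (adjusted p = 0.378). Without probe sets whose names end in _s_at or _x_at, EIF3E was at -0.09 and EIF3F at -0.22, and with probe sets averaged EIF3H was at 0.07 (adjusted p = 0.557).

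All 8 dedicated chaperones and loading factors of ribosomal proteins fell, with a median of -0.70, while 23.7% of all genes tested fell. LTV1, a factor of small subunit maturation, gave 810.8, 681.4 and 540.5 in MALC and 1558, 1736 and 1732 in suspension, 2.47-fold lower (adjusted p = 0.000557). PDCD2, a chaperone known for RPS2, was 2.02-fold lower (adjusted p = 0.000854), and BCCIP, known for RPL23, was 1.8-fold lower (adjusted p = 0.000632). The call of BCCIP was lost without probe sets ending in _s_at or _x_at (log2 -0.05, adjusted p = 0.681). In all 8 genes every MALC sample lay below every suspension sample, which 33.8% of all genes tested also showed.

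Of 14 genes of mTORC1 signalling and TOP control, 7 fell and 1 rose, with a median of -0.15, against 23.7% and 19.0% of all genes tested. MTOR, the kinase, was 1.62-fold lower (log2 -0.70, adjusted p = 0.00146), and EIF4E, the cap-binding protein, 1.3-fold lower (log2 -0.38, adjusted p = 0.00583). LARP1, which binds TOP mRNAs, had a log2 change of -0.16 (adjusted p = 0.0195). TSC1, which restrains mTORC1, was 1.55-fold higher (log2 0.63, adjusted p = 0.00173). Among 3 tested genes that link free ribosomal proteins to p53, MDM4 was 1.89-fold higher (log2 0.92, adjusted p = 0.000699), and MDM2 and CDKN1A did not pass the test (log2 -0.31 and 0.30, adjusted p = 0.147 and 0.0598).

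The proteins of the mitochondrial ribosome are encoded by a separate set of nuclear genes. Of 76 genes tested 60 fell and 1 rose, with a median of -0.44, while 23.7% of all genes tested fell and 19.0% rose. Of the 59 cytosolic ones, 3 fell and 23 rose. MRPL4, MRPL1 and MRPS12 had log2 changes of -1.07, -0.99 and -0.83, and MRPL10 was the one that rose, at 0.39. The difference between the cytosolic and the mitochondrial sets was not tested. These lists were chosen with earlier results of the same data known.

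**Figure D5:**
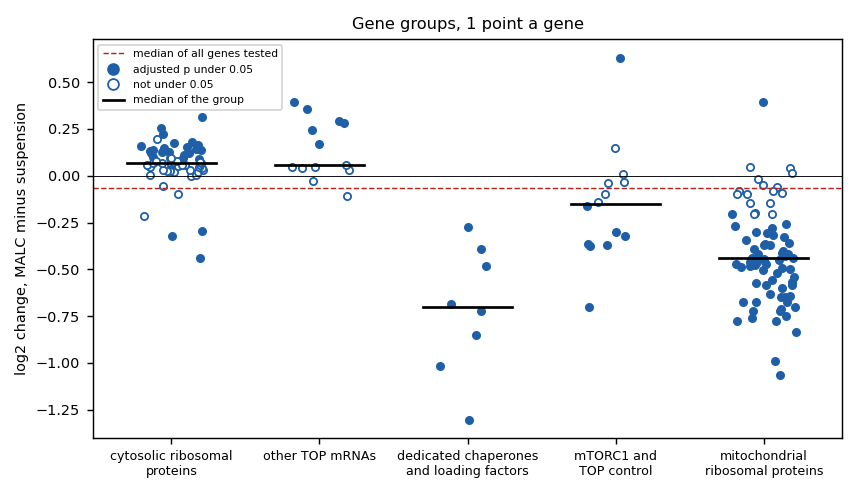
Log2 change, MALC minus suspension, of the tested genes in 5 groups, 1 point a gene, filled where the adjusted p was under 0.05; the black line is the median of the group and the dashed line that of all genes tested (-0.06). The cytosolic ribosomal proteins (0.07) and other TOP mRNAs (0.06) have medians above 0, and the chaperones (-0.70), mTORC1 genes (-0.15) and mitochondrial ribosomal proteins (-0.44) medians below it.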

How the data were processed

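The authors deposited 1 linear intensity for each of 54675 probe sets on each of 6 arrays. The submitters' processing notes name MAS5; its version, its role and any scaling between arrays are not given in the sources used here. Had the authors scaled the arrays to one another, a change common to all transcripts would be hidden. Per the labels' protocols, 200 ng of total RNA per sample were labelled with biotin.

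Symbols came from the platform annotation, updated through a RefSeq gene table; 41091 probe sets had 1 symbol, 1801 several and 11721 none, and all 121 member probe sets matched a protein-coding gene. Left out by the rule were 22 RPS6K, 1 RPS4Y, 2 antisense or divergent and 12 pseudogene probe sets. Log2(value + 16) was taken. Probe sets whose mean was at or above the 40th percentile (a signal of 53.4) were tested: 115 of the members among 32768; for genes the brightest probe set was taken (59 members among 13765). limma 3.58.1 in R 4.3.3 (lmFit, eBayes with trend, two-sided) was used with Benjamini-Hochberg adjustment over all features tested and a threshold of 0.05. The test was tried on simulated data.

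Genes were named by rule: paralogs with an L suffix and their parents, up to 8 of the largest called changes in each direction, genes chosen for their role (8 more were not members), genes whose probe sets disagreed, and up to 3 genes per list; others were picked after their values were seen. The members, lists and rules were chosen with earlier results of these data known. Start windows and promoters are RefSeq's (GRCh38.p14).

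Sample numbers are shared by the groups. Deviations from the group correlated at 0.25, 0.17 and 0.14 between the groups' samples numbered 1, 2 and 3. Samples 2 and 3 crossed gave 0.14 and 0.18, so between samples 2 and 3 a shared number made little difference. What a number marks is not stated. The block by sample number was an alternative, as were 18 other settings of offset, filter, spread model, normalization, probe set choice, array weights and samples. Precision is limited by the number of arrays.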

Additional observations from a re-analysis of the deposited data

How the results depend on the processing

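The 23 rises among ribosomal protein genes (39.0%; 19.0% of all genes) became 5 without the intensity trend (8.47%; all genes 19.0%), 14 with quantile normalization (23.7%; 18.4%), 8 without probe sets ending in _s_at or _x_at (25% of 32 genes; 18.6%), 37 with array weights (62.7%; 26.5%) and 1 with samples 2 and 3 averaged (1.69%; 8.94%), and 8 to 29 when 1 array was left out. The 3 falls (5.08%, against 23.7% of all genes) became 6 without the _s_at and _x_at probe sets (18.8% against 21.6%). They became 5 without both arrays numbered 1 (8.47% against 30.8%), and 2 to 3 without 1 array. For probe sets, the 43 rises (37.4%; 21.2% of all probe sets) became 27 without the filter (22.3%; 13.3%), 16 without the trend (13.9%; 21.0%), 27 with quantile normalization (23.5%; 20.2%), 11 without _s_at and _x_at (27.5%; 21.3%) and 4 with samples averaged (3.48%; 9.46%), or 18 to 49 without 1 array, and the 11 falls became 7 with the filter at the 60th percentile, 7 without _s_at and _x_at, 17 with array weights, 3 with samples averaged and 18 without both arrays numbered 1 (7 to 11 without 1 array). In the main fit 9.57% of member probe sets and 20.4% of all probe sets fell. Without _s_at and _x_at the shares were 17.5% and 18.0%. With the filter at the 60th percentile they were 6.6% and 26.9%, and with array weights 14.8% and 31.5%. With samples averaged they were 2.61% and 6.19%, and without both arrays numbered 1 they were 15.7% and 27.7%. The higher counts with array weights and without both arrays numbered 1 thus came with higher shares over all probe sets. The median of 0.07 was 0.040 with quantile normalization, where that of all genes was -0.079, and 0.067 to 0.081 without 1 array. With the replicate block there were 25 rises (42.4%, and 20.7% of all genes) and 4 falls (6.78% and 25.8%) among genes. Among probe sets there were 45 rises (39.1%, and 22.8% of all probe sets) and 12 falls (10.4% and 21.7%). RPL26L1 (0.0329) and RPS15A (0.0425) gained a call with the block, and no other named gene changed its call. Signs reversed without _s_at and _x_at for EIF3E (-0.093), EIF3F (-0.22), RPL37A (-0.65), RPL7 (-0.49), RPLP1 (-0.15), RPS27L (-0.50) and RPS28 (-0.26). In that setting another probe set stands for the gene. With averaged probe sets signs reversed for RPL7 (-0.15), RPLP1 (-0.029), RPS27L (-0.077) and RPS28 (-0.17). There the mean of all the gene's tested probe sets stands for it. Other causes were not tested. Of 26 called members, 3 were called in every alternative in which they could be tested. Over the named genes, 732 values kept direction and call, 95 lost and 20 gained a call.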

Other observations

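The 65 probe sets that name a ribosomal protein gene together with another gene were not members, and 62 of them could be tested. In the fit over all probe sets 28 were higher in MALC and 7 lower, with a median of 0.07; over all probe sets 21.2% were higher and 20.4% lower. Of the 44 with a mean signal of at least 15000, 24 were higher and 1 was lower, with a median of 0.08. Their signal cannot be assigned to 1 gene.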
